A study of Homo sapiens with 6 samples.

Results

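AP-1 is a dimeric transcription factor built from basic leucine zipper proteins of the FOS and JUN families. The members described here are the FOS family genes FOS, FOSB, FOSL1 and FOSL2 and the JUN family genes JUN, JUNB and JUND. ATF3 and MAFF, which belong to neither family, are bZIP genes of the ATF and small Maf families whose products can share partners with them. A probe set was a member if the array's annotation named 1 of these 9 genes and no other gene. The 9 genes, of 19775 measured, have 22 of the 54613 probe sets: 1 each for FOS, FOSB, FOSL1 and JUNB, 2 for MAFF, 3 for ATF3, 4 each for JUN and JUND and 5 for FOSL2.

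The values come from 6 Affymetrix 3' expression arrays of ARPE-19, a human retinal pigment epithelium line in wide use. Cells grown in serum-containing medium received either the solvent (0.1% DMSO, 3 arrays) or SRPIN803 at 10 µM (3 arrays), both for 4 h. The compound inhibits SRPK1, a kinase of splicing factors, and the protein kinase CK2. Whether the replicates were separate cultures is not stated, so the p-values below speak only of array-to-array spread, which may be technical. The comparison asks which AP-1 subunit transcripts are altered within 4 h of adding it.

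FOS family proteins pair with JUN family proteins and cannot pair with each other, whereas JUN proteins can also form dimers among themselves. The dimers bind the TRE (TGACTCA) and, with ATF partners, the related CRE (TGACGTCA). Several of the genes are immediate early genes: serum, growth factors, cytokines and stress switch them on within minutes through MAP kinases, and their mRNAs decay fast. JUN protein binds the promoter of its own gene. JUND is known as the more constantly expressed JUN gene, and JUNB can restrain JUN.

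Promoter windows in the RefSeq table (GRCh38.p14, 250 bases before to 50 after the start) were found for 8 of the 9 members, 10 windows in all, and not for FOSL1. Positions count from the start, with the base before it at -1. The stretch before the start of JUN is shown because JUN was the member gene whose probe sets passed the test below. It is chr1:58784048-58784297 on the minus strand, and the capitals mark a TRE-like motif (TGACATCA) at positions -67 to -60 and the motif TTACCTCA at positions -186 to -179.
JUN: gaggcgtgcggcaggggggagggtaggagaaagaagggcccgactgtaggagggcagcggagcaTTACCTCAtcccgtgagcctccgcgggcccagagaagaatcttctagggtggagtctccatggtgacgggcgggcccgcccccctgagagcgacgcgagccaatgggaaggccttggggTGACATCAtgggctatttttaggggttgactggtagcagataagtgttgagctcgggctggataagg

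Both strands of all 35116 windows of the table were searched. TGACATCA stood in 2.61% of them and TTACCTCA in 0.715%. The 8-letter TGACATCA of JUN was also found upstream of ATF3, at positions -123 to -116 of the more 5' of its 2 windows. The stretches around both matches are shown to set them side by side, with the motif in capitals (JUN at chr1:58784095-58784126, minus strand; ATF3 at chr1:212565272-212565303, plus strand).
JUN: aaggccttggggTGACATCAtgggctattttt
ATF3: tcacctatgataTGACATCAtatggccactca

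Of the sites that AP-1 and ATF proteins bind, several members also held the CRE or its first 6 letters, TGACGT. FOS, FOSB and FOSL2 held TGACGT, and 1 of the 2 windows of MAFF held the whole CRE (TGACGTCA), all starting between positions -66 and -54 on the strand of the gene. JUND held a whole CRE farther out, at positions -200 to -193, and TGACGT on the opposite strand at positions -87 to -82. Stretches around the 5 matches on the strand of the gene are shown to set them side by side, with TGACGT or the CRE in capitals. They lie at chr14:75278752-75278781 (FOS), chr19:45467924-45467953 (FOSB), chr2:28392780-28392809 (FOSL2) and chr22:38201928-38201959 (MAFF) on the plus strand, and at chr19:18281803-18281834 (JUND) on the minus strand.
FOS: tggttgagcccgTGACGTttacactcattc
FOSB: gcaaggggcgggTGACGTaagcaggggggc
FOSL2: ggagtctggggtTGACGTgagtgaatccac
MAFF: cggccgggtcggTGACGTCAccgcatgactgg
JUND: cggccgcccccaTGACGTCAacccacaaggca

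TGACGT, which every CRE contains, stood in 7.98% of the windows and the whole CRE in 1.85%. The TRE (TGACTCA), held by 4.95%, was found in 1 member window, that of FOSL2, at positions 5 to 11 after the start. The CArG box, the core of the serum response element, was in 1.29% of all windows and in no member window. Sequence outside the windows was not searched, so a CArG box farther upstream of FOS or another member would have been missed. Elements of wider use were shared too: the GC box (GGGCGG) stood in windows of 7 members and in 45.0% of all windows, and the CCAAT box (CCAAT) in windows of 5 members and in 34.6% of all. These matches are letters in a short window and no measurement of binding.

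After 4 h of SRPIN803, JUN transcripts were lower, and no probe set of another AP-1 subunit passed the test. Of the 22 member probe sets, 2 passed limma's test over all 54613 probe sets (adjusted p under 0.05), both of JUN and both lower. Over all probe sets 2.22% were called, 1.03% lower and 1.19% higher. The 2 called probe sets of JUN fell 1.53-fold and 1.48-fold. The groups did not overlap in 12 of the 22 probe sets (9 lower, 3 higher). Over all probe sets 21.5% had groups that did not overlap, 10.1% lower and 11.3% higher. The median log2 change was -0.10 over the 22 probe sets and 0.01 over all.

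**Figure D1:**
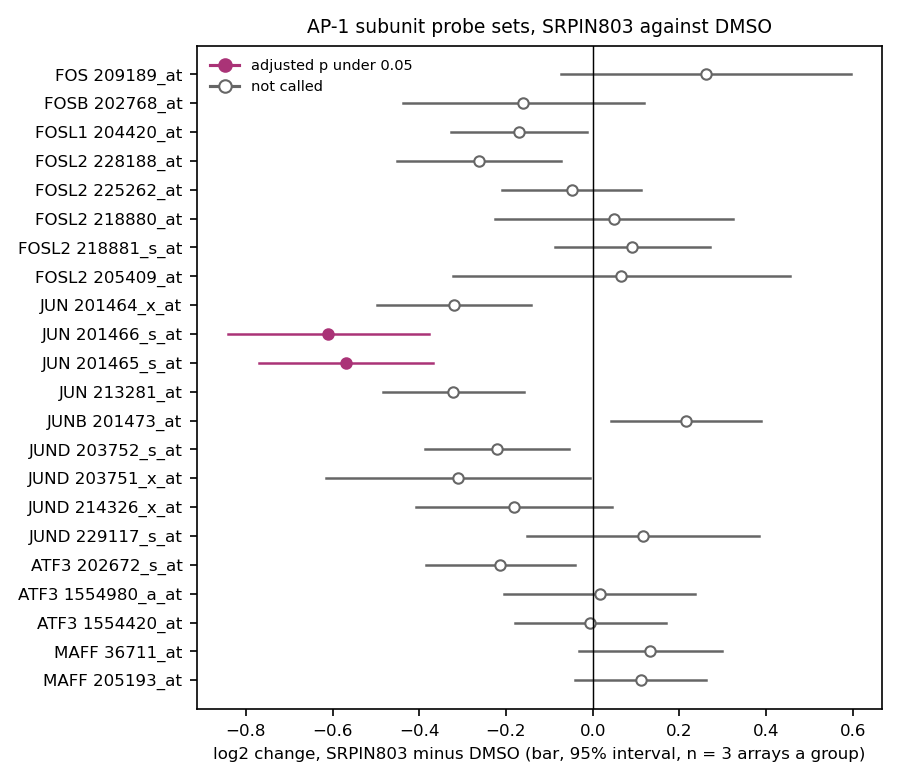
Log2 change (SRPIN803 minus DMSO) of each of the 22 probe sets of AP-1 subunits, with limma's 95% interval; filled points passed an adjusted p of 0.05. Only JUN 201466_s_at (-0.61) and JUN 201465_s_at (-0.57) are filled, and the intervals of JUNB and of the brightest JUND probe set lie on opposite sides of 0.

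JUN encodes the founding member of the JUN family, a strong activator when paired with FOS proteins. Probe set 201466_s_at read 10.12, 10.28 and 10.32 in DMSO replicates 1 to 3 and 9.45, 9.73 and 9.71 in SRPIN803 replicates 1 to 3 (RMA log2 values). The groups did not overlap, and SRPIN803 replicate 1 was the lowest array. Its change was -0.61 ± 0.10 (SE, 95% interval -0.84 to -0.38), with limma's adjusted p = 0.0265.

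Probe set 201465_s_at of JUN read 8.38, 8.55 and 8.55 in DMSO and 7.91, 7.82 and 8.04 in SRPIN803. Here SRPIN803 replicate 2 was the lowest array, and again every treated array lay below every solvent array. The change was -0.57 ± 0.09 (95% interval -0.77 to -0.37, limma's adjusted p = 0.0212).

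The brightest JUN probe set, 201464_x_at, read 11.32, 11.25 and 11.26 in DMSO and 10.84, 11.01 and 11.03 in SRPIN803. It differed by -0.32 ± 0.08 (95% interval -0.50 to -0.14) and did not pass over all probe sets (limma's adjusted p = 0.084). The suffix _x_at marks probes that may also match other transcripts. The dimmest one, 213281_at, read 6.71, 6.65 and 6.74 in DMSO and 6.38, 6.45 and 6.31 in SRPIN803, a difference of -0.32 ± 0.07 (limma's adjusted p = 0.0655). The groups of all 4 JUN probe sets were apart in the same direction.

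The sizes of the JUN differences ran from -0.61 to -0.32 between probe sets. A test of whether probe sets of 1 gene moved apart (limma's diffSplice, without _x_at probe sets) did not call JUN (adjusted p = 0.25, where 3.36% of 5535 genes were called). None of the 3 other members it covered was called either (ATF3, FOSL2 and MAFF, adjusted p 0.342, 0.447 and 0.921). With 1 probe set for each of 19775 genes, the brightest JUN probe set was called (limma's adjusted p = 0.0406, where 5.84% of genes were called), and no other member was. Over the mean of all 4 probe sets JUN was at -0.46 (limma's adjusted p = 0.0072).

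Each of the 2 JUN calls was lost in 5 of 6 fits with 1 array fewer. When each array was dropped in turn, 201466_s_at stayed called only without SRPIN803 replicate 2, with changes of -0.67 to -0.52 and limma's adjusted p from 0.0434 to 0.118. Likewise, 201465_s_at stayed called only without SRPIN803 replicate 3, with changes of -0.63 to -0.52 and limma's adjusted p from 0.0454 to 0.0994. When probe sets below the median level were dropped before the fit, all 4 of JUN were called (limma's adjusted p 0.00721 to 0.0281). In that fit 9.77% of the 27307 probe sets were called. The call of the brightest JUN probe set among genes was lost without any 1 array (limma's adjusted p 0.0693 to 0.131).

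**Figure D2:**
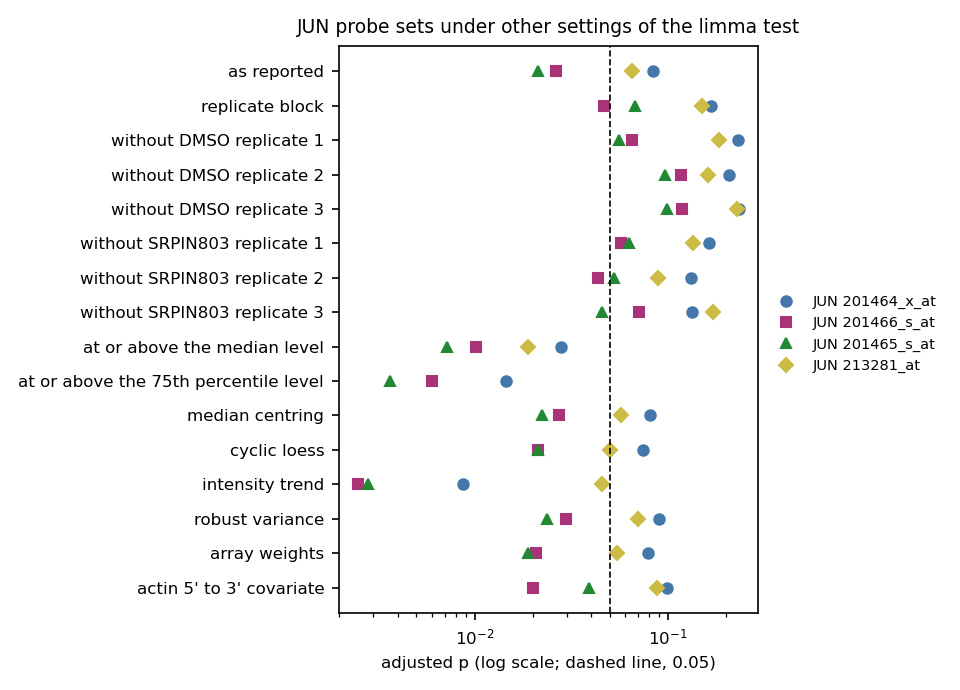
Adjusted p (log axis) of the 4 JUN probe sets as reported and under other settings of limma's test; the dashed line is 0.05. Leaving out an array moves all 4 to the right, up to 0.234, while a filter on dim probe sets or an intensity trend moves them to the left.

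JUNB, a JUN family gene that is also an immediate early gene, lay on the other side. Its 1 probe set, 201473_at, read 7.28, 7.18 and 7.14 in DMSO and 7.42, 7.48 and 7.34 in SRPIN803. Every treated array was above every solvent array. The difference of 0.22 ± 0.07 (95% interval 0.04 to 0.39) did not pass over all probe sets (limma's adjusted p = 0.211).

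JUND, the remaining JUN gene, had 1 bright and 3 dim probe sets. The bright one, 203752_s_at, read 11.45, 11.55 and 11.58 in DMSO and 11.37, 11.28 and 11.27 in SRPIN803. The groups did not overlap, and the difference was -0.22 ± 0.07 (95% interval -0.39 to -0.06, limma's adjusted p = 0.182).

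The other JUND probe sets lay near or below the array median of about 5.26, where RMA compresses differences. Differences were -0.31 ± 0.13 for 203751_x_at, -0.18 ± 0.10 for 214326_x_at and 0.12 ± 0.12 for 229117_s_at, with limma's adjusted p from 0.31 to 0.714. The last had 1 high array, SRPIN803 replicate 2, at 4.99 against 4.55 to 4.64 in the others of both groups.

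**Figure D3:**
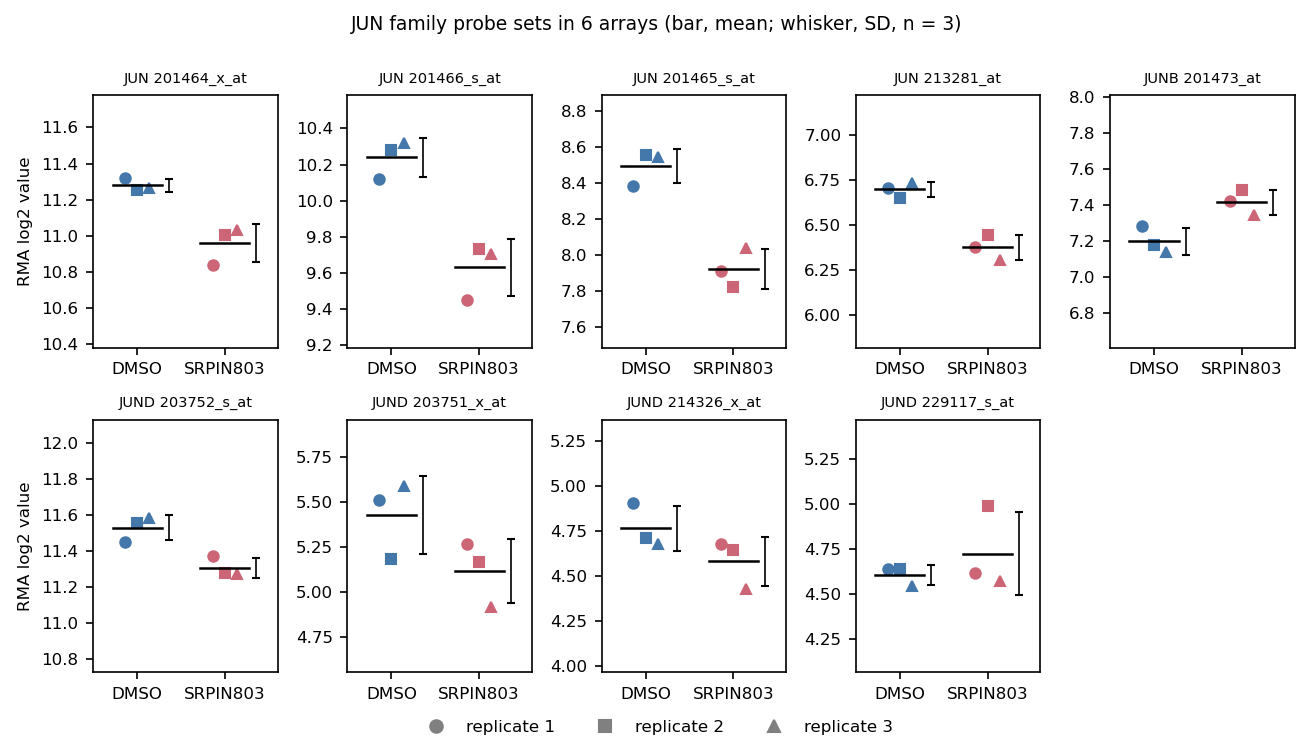
RMA log2 value of each JUN, JUNB and JUND probe set in each array (point shapes, replicate number; bar, mean; whisker, SD, n = 3); every panel spans the same log2 range. The 4 JUN panels step down from DMSO to SRPIN803, JUNB steps up from a mean of 7.20 to 7.42, and JUND 203752_s_at steps down from 11.53 to 11.31.

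JUN and JUNB were also compared within arrays, as a description of genes picked for their opposite signs. The brightest JUN value minus that of JUNB, set to 0 at the DMSO mean, was between -0.04 and 0.05 in DMSO and was -0.66, -0.56 and -0.39 in SRPIN803. The mean difference of -0.53 had p = 0.1 in an exact two-sided permutation test, the smallest that 3 against 3 arrays allow, so the test could not pass. For JUNB minus JUND it was 0.44 (exact permutation p = 0.1), and for JUN minus JUND it was -0.10 (exact permutation p = 0.6). Adjusted over these 3 pairs, which were picked after the values were seen, the exact permutation p was 0.15, 0.15 and 0.6.

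Among the FOS family, FOS and FOSB are the classic immediate early genes, whose products carry strong activation domains. The only FOS probe set, 209189_at, was dim. It read 5.10, 4.57 and 4.74 in DMSO and 5.22, 5.06 and 4.91 in SRPIN803, so that DMSO replicate 1 lay among the treated arrays. The difference was 0.26 ± 0.14, and its 95% interval of -0.07 to 0.60 reaches well above 0 (limma's adjusted p = 0.456).

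FOSB 202768_at read 5.82, 5.56 and 5.65 in DMSO and 5.57, 5.69 and 5.28 in SRPIN803. The groups overlapped, at a difference of -0.16 ± 0.12 (95% interval -0.44 to 0.12, limma's adjusted p = 0.607). With 1 array left out, FOS ran from 0.14 (without DMSO replicate 2) to 0.41 (without DMSO replicate 1) and FOSB from -0.25 (without SRPIN803 replicate 2) to -0.042 (without SRPIN803 replicate 3). With the spread of these dim probe sets, small changes in FOS or FOSB could not be told from none.

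FOSL1 (FRA1) and FOSL2 (FRA2) encode FOS relatives without the strong activation domain, which stay longer after a stimulus. FOSL1 204420_at read 7.83, 7.73 and 7.82 in DMSO and 7.66, 7.64 and 7.58 in SRPIN803. The groups did not overlap, but the difference was small, -0.17 ± 0.07 (95% interval -0.33 to -0.01, limma's adjusted p = 0.282).

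FOSL2 had 5 probe sets, none of which passed. The brightest, 228188_at, read 9.62, 9.72 and 9.71 in DMSO and 9.28, 9.48 and 9.50 in SRPIN803, a difference of -0.26 ± 0.08 (limma's adjusted p = 0.168) with groups that did not overlap. The next, 225262_at, read 9.54, 9.57 and 9.56 against 9.43, 9.57 and 9.52, a difference of -0.05 ± 0.07 (95% interval -0.21 to 0.11). In the other three, 218880_at, 218881_s_at and 205409_at, the groups overlapped and the differences were 0.05, 0.09 and 0.07 (limma's adjusted p 0.656 to 0.908).

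**Figure D4:**
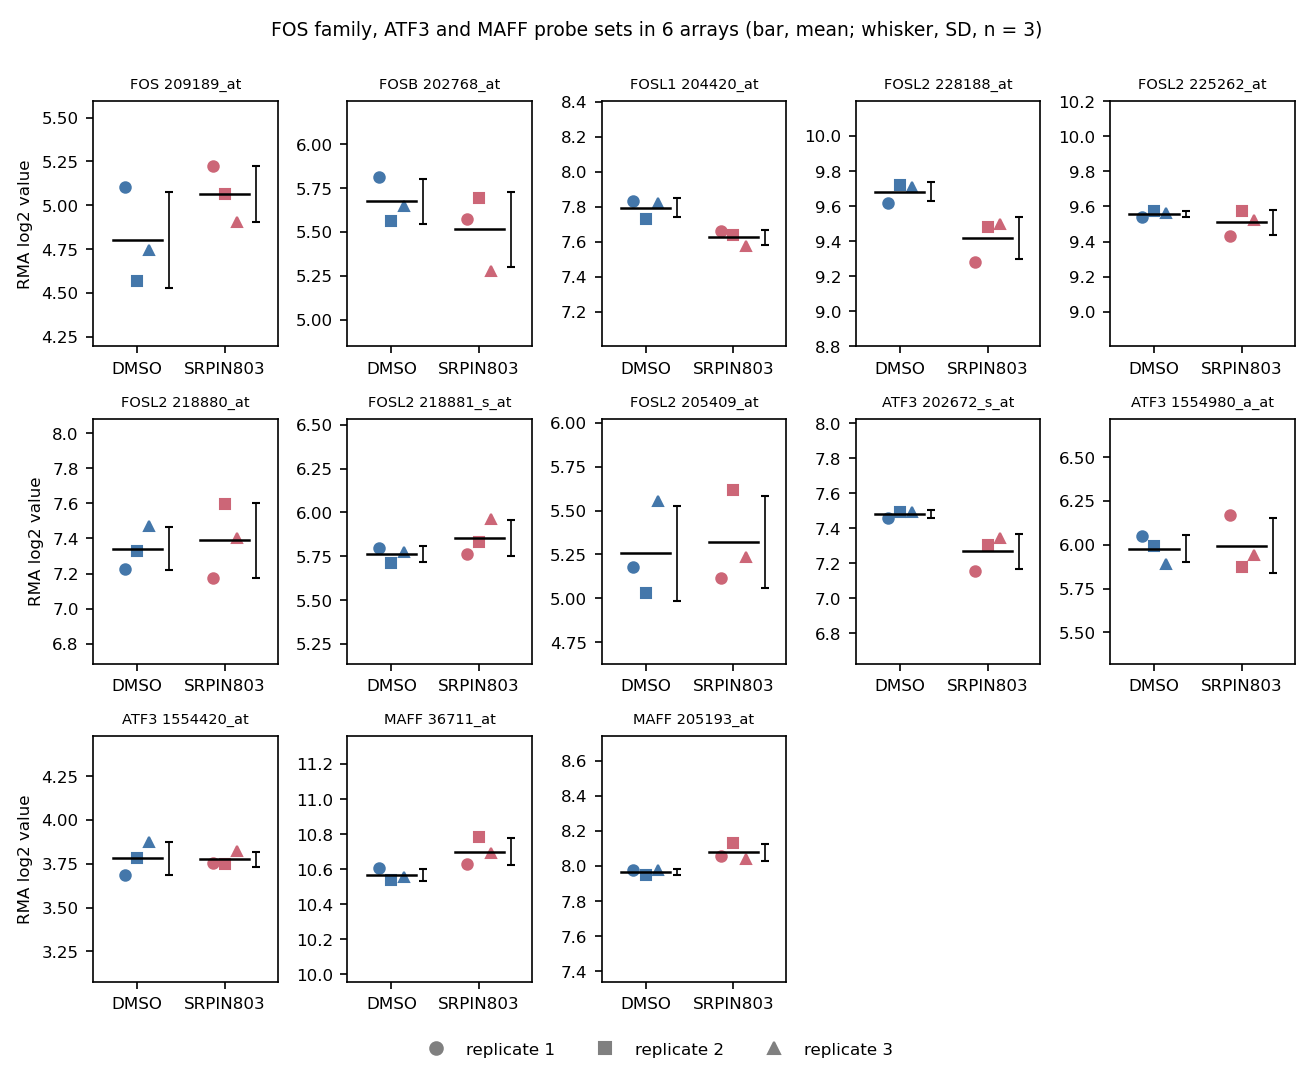
RMA log2 value of each FOS, FOSB, FOSL1, FOSL2, ATF3 and MAFF probe set in each array (point shapes, replicate number; bar, mean; whisker, SD, n = 3); every panel spans the same log2 range. FOSL1, FOSL2 228188_at and ATF3 202672_s_at are lower in all SRPIN803 arrays, both MAFF probe sets are higher, and FOS and FOSB scatter by 0.13 to 0.27 (SD) within groups.

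ATF3 encodes a stress-induced bZIP factor that represses as a homodimer and can pair with JUN proteins. Its brightest probe set, 202672_s_at, read 7.46, 7.49 and 7.50 in DMSO and 7.16, 7.31 and 7.34 in SRPIN803. All treated arrays were lower, by a mean of -0.21 ± 0.07 (95% interval -0.39 to -0.04), which did not pass (limma's adjusted p = 0.215). The other ATF3 probe sets, 1554980_a_at and the dim 1554420_at, were at 0.02 ± 0.09 and -0.01 ± 0.08, with overlapping groups.

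MAFF encodes a small Maf protein, which lacks an activation domain and serves as a partner for other bZIP factors. Its probe set 36711_at read 10.61, 10.54 and 10.56 in DMSO and 10.63, 10.78 and 10.69 in SRPIN803. The second, 205193_at, read 7.98, 7.95 and 7.98 in DMSO and 8.06, 8.13 and 8.04 in SRPIN803. Both were higher in every treated array, by 0.13 ± 0.07 and 0.11 ± 0.07, and neither passed (limma's adjusted p = 0.435 and 0.491).

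Other genes of the pathway were taken from lists, with 1 probe set a gene and adjustment over all 19775 genes, of which 2.37% were called lower and 3.46% higher. Listed genes without a probe set of their own here were not analysed. Among 18 BATF, ATF and Maf relatives and dimer partners 0 passed limma's test, with 2 at an unadjusted p under 0.05. The smallest p was that of DDIT3 (CHOP), a stress-induced C/EBP family factor, at 0.20 ± 0.06 (limma's adjusted p = 0.103). The median log2 change of this list was -0.01, against 0.02 over all genes.

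Among 20 kinases and ubiquitin ligases that act on AP-1 proteins, 1 rose and 1 fell. MAP3K5 (ASK1), a stress kinase upstream of JNK and p38, read 6.91, 6.85 and 6.90 in DMSO and 6.32, 6.29 and 6.21 in SRPIN803. It fell 1.53-fold, by -0.61 ± 0.06 (limma's adjusted p = 0.00254), its other probe set was at -0.68, and the call survived the loss of any single array. MAPK8 (JNK1), which phosphorylates JUN, read 8.82, 8.93 and 8.78 in DMSO and 9.18, 9.12 and 9.21 in SRPIN803.

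The MAPK8 groups did not overlap, and it rose by 0.32 ± 0.06 (limma's adjusted p = 0.031). All 5 of its probe sets had higher means, by 0.19 to 0.37, and none passed over all probe sets (limma's adjusted p 0.0700 to 0.453). Its call was lost with any 1 array left out (limma's adjusted p 0.056 to 0.13) and over the mean of its probe sets (0.0551). The median of the list was 0.02.

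Of 15 factors that act at the FOS and JUN promoters, 1 rose and 0 fell. MEF2C, a MADS box factor, read 6.50, 6.50 and 6.25 in DMSO and 6.91, 6.93 and 6.96 in SRPIN803. It rose by 0.51 ± 0.08 (limma's adjusted p = 0.0137). It stayed called with any 1 array left out, though narrowly (limma's adjusted p 0.0355 to 0.04998). Of its other probe sets, one was at 0.78 and a dim one at -0.12. SRF, the serum response factor, was higher in all treated arrays, at 0.36 ± 0.09, without passing (limma's adjusted p = 0.0591). Over the mean of its probe sets SRF was at 0.21 (limma's adjusted p = 0.229). SRF was named after its values were seen. The median of this list was 0.05. None of 11 AU-rich element factors, which act on FOS and JUN mRNA, passed limma's test. Of these, 1 had an unadjusted p under 0.05, ZFP36 (tristetraprolin) at -0.26 ± 0.09 (limma's adjusted p = 0.18). The median of the 11 was 0.05.

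Among 30 genes known as AP-1 targets 7 fell and 0 rose, 23.3% lower where 2.37% of all genes were called lower. The list was written with the large falls of CXCL8, HMOX1, VEGFA, HBEGF and CCL2 already known, so this share is no independent evidence. CXCL8 (interleukin-8) read 10.61, 10.76 and 10.71 in DMSO and 8.47, 8.83 and 8.23 in SRPIN803, and it fell 4.55-fold. HMOX1 (haem oxygenase) read 10.21, 10.07 and 10.11 in DMSO and 8.89, 9.15 and 8.89 in SRPIN803, and it fell 2.22-fold. VEGFA fell 1.81-fold and the EGF family growth factor HBEGF fell 1.70-fold. Limma's adjusted p of the 4 ran from 0.000488 to 0.00942, and the groups of each were apart. Dropping any single array left these 4 called. HBEGF lost its call over the mean of its 4 probe sets (limma's adjusted p = 0.0728), of which the bright pair was at -0.77 and -0.75 and the dim pair at 0.17 and 0.13.

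The remaining 3 called targets, named after their values were seen, changed less. They were CCL2, a monocyte chemokine (-0.53 ± 0.11), IL1B, interleukin-1 beta (-0.43 ± 0.08), and IVL, the cornified envelope protein involucrin (-0.44 ± 0.08). Dropping arrays in turn left each called once, CCL2 without DMSO replicate 1, IL1B without SRPIN803 replicate 3 and IVL without SRPIN803 replicate 2. Limma's adjusted p otherwise reached 0.103, 0.0922 and 0.108. CCL2 and IVL did not pass over all probe sets either (limma's adjusted p = 0.0578 and 0.0543).

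The other 23 targets did not pass, and the median over the list was -0.02. CCND1 (cyclin D1) was at -0.01 ± 0.08, IL6 at -0.08 ± 0.09 and the cytokine LIF at 0.02 ± 0.06, each with overlapping groups. MMP1 and PTGS2, both well known AP-1 targets, had dim probe sets with levels of 2.51 and 2.48. IL11, a cytokine of the IL-6 family, read 8.24 in each DMSO array and 9.55, 9.93 and 8.53 in SRPIN803. With so wide a spread among the treated arrays, its difference of 1.10 ± 0.31 did not pass (limma's adjusted p = 0.0883), but it did without SRPIN803 replicate 3 (limma's adjusted p = 0.00357). Over the mean of its probe sets IL11 was at 0.78 (limma's adjusted p = 0.102). DUSP1, a MAP kinase phosphatase, was higher in all treated arrays, at 0.30 ± 0.07 (limma's adjusted p = 0.0526). On the other side, PLAUR, the urokinase receptor, was lower in all treated arrays, at -0.35 ± 0.10 (limma's adjusted p = 0.0905), and passed without SRPIN803 replicate 2 (limma's adjusted p = 0.0475). Over the mean of its probe sets PLAUR was at -0.25 (limma's adjusted p = 0.1225). The matrix protease MMP3, dim here, was lower in all treated arrays too, at -0.32 ± 0.13 (limma's adjusted p = 0.233). IL6, CCND1, LIF, MMP1, PTGS2, IL11, DUSP1, PLAUR and MMP3 were named after their values were seen.

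**Figure D5:**
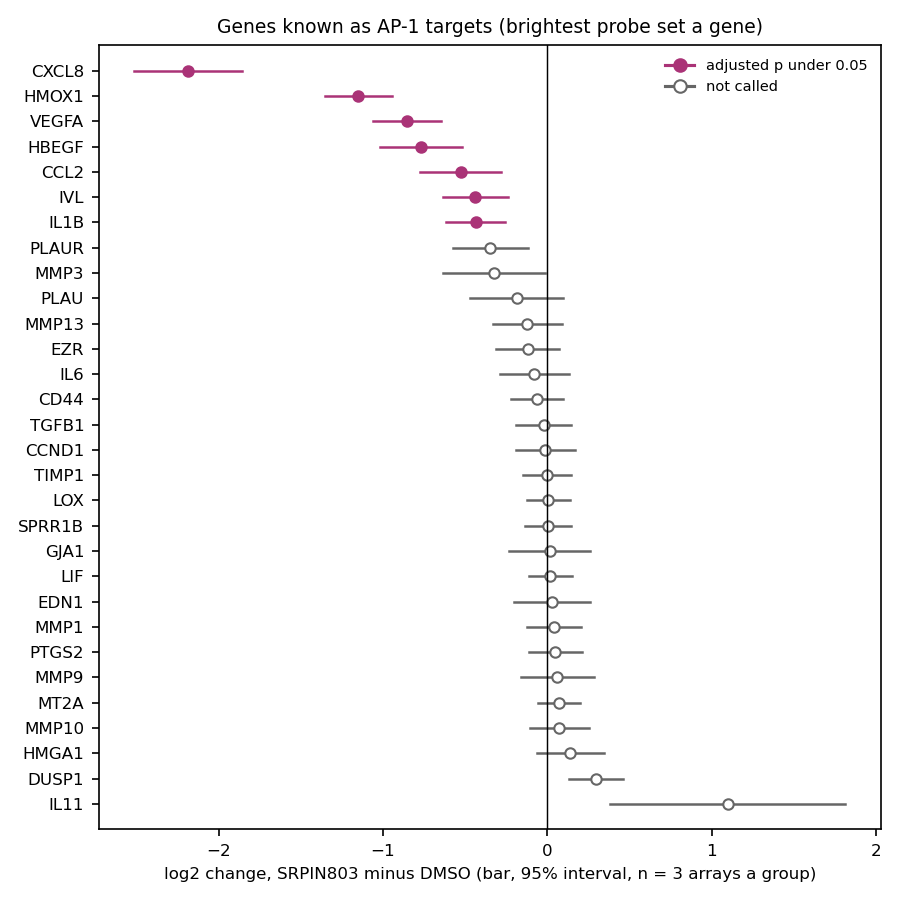
Log2 change (SRPIN803 minus DMSO, brightest probe set a gene) of 30 genes known as AP-1 targets, sorted by size, with limma's 95% interval; filled points passed an adjusted p of 0.05. The 7 filled genes are all lower, CXCL8 most (-2.18), and IL11 has the widest interval (0.38 to 1.81).

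The genes whose values over the 6 arrays followed JUN 201465_s_at most closely, among 12626 genes with a level of the median or more, were SCAF8, SLC71A1, PWWP2B, IFIT3 and SOCS2 (Pearson r 0.992 to 0.995). Those most opposite were BFSP1, PLPP6, CLDN12, NRM and IMPA2 (r -0.995 to -0.991). Among the members' brightest probe sets r with it ran from -0.97 for JUNB and -0.88 for MAFF to 0.92 for JUND. These correlations describe 6 arrays that share the same 2 groups.

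The labelled cell type was checked against its markers. Of 15 retinal pigment epithelium markers 10 lay above the median level, as did 12626 of the 19775 genes, not counting JUN. This count alone therefore says little about the cell type. MITF, OTX2, KRT8 and KRT18 were the brightest of the 10. PMEL, TYR, RLBP1, TTR, BEST1 and SERPINF1 lay lower, at 5.34 to 6.75. The visual cycle genes RPE65 and LRAT were below the median, at levels of 2.33 and 2.83. MITF rose by 0.35 (limma's adjusted p = 0.0312). MERTK, TYRP1 and RGR also lay below the median level, at 3.85, 3.21 and 5.21. The list's summed level (log2) was 14.4 in the DMSO arrays and 14.3 to 14.4 in SRPIN803. These sums add unlogged values, so KRT18 (13.76) and KRT8 (12.13) set most of this one, which says little about the other markers. Fibroblast markers summed to 10.7 to 11.2 in DMSO and 10.3 to 10.8 in SRPIN803, with COL1A1 the brightest of them. Endothelial markers summed to 7.7 to 7.73 and 7.68 to 7.77, and leukocyte markers to 6.20 to 6.24 and 6.22 to 6.39. No marker of these other cell types was called, and their part in the JUN result was not tested. The actin controls' 5' minus 3' signal, a gauge of RNA and labelling quality, was lowest in SRPIN803 replicate 1 (-2.16, against -1.99 to -1.41 in the others), the array in which JUN 201466_s_at was lowest. With that signal as a covariate, an alternative chosen after seeing the data, JUN 201466_s_at was at -0.61 (limma's adjusted p = 0.0201) and 201465_s_at at -0.57 (0.0391). In a bulk sample like this, less RNA per cell and fewer cells with it cannot be told apart.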

How the data were processed

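The values deposited by the authors are log2 expression, 1 per probe set and array, made with RMA (background correction, normalization between arrays, summary of probes), per the submitters' processing notes. The RMA software and its settings: not given in the sources used here. Quantiles of the arrays agreed within 0.14, so a change in total RNA per cell would not show. Arrays give no read depth, and 3 arrays per group limit the precision. No 2 arrays were identical. Pearson's r over probe sets was 0.9957 to 0.9977 for arrays of 1 group and 0.9940 to 0.9961 otherwise. The 62 control probe sets were left out.

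Probe sets were named by the platform's annotation (41091 probe sets naming 1 gene). All probe sets were fitted with limma 3.58.1 in R 4.3.3 (lmFit, eBayes, group as the only term, two-sided, Benjamini-Hochberg adjustment over all probe sets), and called at an adjusted p under 0.05. Lists used each gene's brightest probe set, with adjustment over all genes. Probe sets of 1 gene were compared with diffSplice, at or above the median level. Errors beside changes are standard errors. The tests were also run on simulated data with independent noise and no array effects, which cannot show how firm the calls here are. An exact permutation test of 3 against 3 arrays (SciPy 1.17.1) cannot go below 0.1.

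The members and lists were chosen with earlier results of these data known. All member probe sets are named. Of each list, up to 4 called genes with the largest change are named, or that with the smallest p, plus the 5 genes most like and the 5 most unlike the called JUN probe set of smallest p. Alternatives were a replicate block, leaving out arrays in turn, filters on dim probe sets, normalizations, variance models, array weights, other call rules, the probe set per gene and, chosen after seeing the data, an actin covariate.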

Additional observations from a re-analysis of the deposited data

How the results depend on the processing

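The reported calls are 2 member probe sets, 1214 of all probe sets, 1154 of all genes and 10 list genes (0 relatives, 2 kinases and ligases, 1 promoter factor, 7 targets, 0 AU-rich element factors). With 1 array left out, 0 to 1 member probe sets, 215 to 716 of all probe sets, 324 to 687 genes and 6 to 8 list genes were called, with 1 to 1 kinases, 1 to 2 promoter factors and 4 to 6 targets. Such fits have fewer arrays. The labels give no pairing, so the replicate numbers were not taken as pairs. Deviations of same-numbered arrays had r = 0.26, -0.10 and 0.11, against -0.30 to 0.20 for arrays of different number. Only replicate 1 lay above that range, and these values do not settle whether arrays were paired. With the replicate block 1 member, 304 probe sets, 689 genes and 1 kinase were called. JUN 201465_s_at (limma's adjusted p = 0.0678), the brightest JUN probe set among genes (0.0904), MAPK8 (0.0808) and IVL (0.0797) lost their calls there. Above the median level the counts were 4 members, 2667 probe sets, 1904 genes and 18 list genes (1 relative, 4 kinases, 3 promoter factors). Above the 75th percentile they were 5 members, 2206 probe sets, 1 relative and 2 promoter factors, JUND 203752_s_at and FOSL2 228188_at among the 5. Calls over all probe sets rose there too, from the reported 1214 to 2206, although fewer probe sets were fitted. Whether the added member calls are particular to AP-1 was not tested. An intensity trend gave 5, 2731, 1965 and 17 (4 kinases, 3 promoter factors). An adjusted p under 0.1 gave 4, 2492, 1991 and 17 (4 and 3). A fold of at least 1.5 gave 1, 503, 229 and 5 (1 kinase, 0 promoter factors, 4 targets). By gene, 1 member was called with the brightest probe set and 1 with the mean, which left 1 kinase. Promoter factors numbered 2 with cyclic loess, array weights and the actin covariate, chosen after seeing the data. The cause of these shifts was not tested.

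Probe sets of members that moved apart numbered 0 under each alternative run. All probe sets of JUN, JUNB, FOSL1 and MAFF kept their direction under each alternative run. Signs turned only in uncalled probe sets with small differences when 1 array was left out. FOSL2 218880_at ran from -0.054 to 0.16 (below 0 without DMSO replicate 1 or SRPIN803 replicate 2) and FOSL2 205409_at from -0.082 to 0.22 (below 0 without DMSO replicate 2 or SRPIN803 replicate 2). JUND 229117_s_at ran from -0.015 to 0.19 (below 0 without SRPIN803 replicate 2). ATF3 1554980_a_at ran from -0.071 to 0.078 (below 0 without DMSO replicate 3 or SRPIN803 replicate 1) and ATF3 1554420_at from -0.054 to 0.041 (above 0 without DMSO replicate 3 or SRPIN803 replicate 1 or 2). Signal over background limits FOS, 2 JUND probe sets and 1 of ATF3, which lie below the median level.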
